A study of Mus musculus with 6 samples.

Results

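Secreted antagonists of Wnt signaling were examined in newborn mouse calvaria, with and without deletion of *Stat3* in the osteoblast lineage. Members were the 10 genes *Sost*, *Sostdc1*, *Dkk1*, *Dkk2*, *Dkk3*, *Sfrp1*, *Sfrp2*, *Sfrp4*, *Frzb* and *Wif1*, taken by symbol from the 44556 genes of the count tables. All 10 were found. RNA-seq libraries came from parietal bone of 3 OsxCre and 3 OsxCre;Stat3fl/fl newborns on the C57BL/6 background. Both genotypes carry OsxCre, a transgene in which the *Osx* (*Sp7*) promoter drives Cre recombinase in osteoblast precursors. The OsxCre;Stat3fl/fl animals also carry floxed *Stat3* alleles, from which Cre removes exons in cells of that lineage. Muscle, vessels and blood cells of the dissected bone are not targets of this Cre by design. The study reported loss of STAT3 protein in cultured mesenchymal stem cells from the bone marrow of older OsxCre;Stat3fl/fl mice. The study describes the animals as littermates, and which newborns shared a litter is not given in the labels.

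Canonical Wnt signaling starts when a WNT protein joins a Frizzled receptor to the co-receptor LRP5 or LRP6, which spares β-catenin from degradation and, in bone, favors osteoblast differentiation. Secreted antagonists act outside the cell at different points of this step. Sclerostin (*Sost*), its paralog *Sostdc1* and the Dickkopf proteins (*Dkk1*, *Dkk2*) bind the co-receptors, whereas the secreted Frizzled-related proteins (*Sfrp1*, *Sfrp2*, *Sfrp4* and *Frzb*, also called *Sfrp3*) and *Wif1* bind WNT proteins themselves. *Dkk3* belongs to the Dickkopf family by sequence but is not an established inhibitor of the co-receptors. Sclerostin is best known as a product of osteocytes that restrains bone formation.

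In the OsxCre;Stat3fl/fl libraries, *Sfrp1* was the only one of the 10 antagonists that passed the test, and it rose 1.68-fold. *Sost*, *Dkk1*, *Wif1* and *Sfrp4* had lower means, by 2.04-, 1.93-, 1.58- and 1.37-fold in the fit, without passing the test. *Frzb*, *Sfrp2*, *Sostdc1*, *Dkk2* and *Dkk3* had log2 fold changes between -0.33 and 0.11. Values are given as CPM, the usual measure of a count relative to its library's total, here after TMM scaling. Genotypes were compared by the two-sided quasi-likelihood test of edgeR, and p-values were adjusted over the 15600 genes that passed a filter for low counts. A gene was called at an adjusted p under 0.05. All 10 antagonists passed the filter, with 14 to 1759 counts in a library. A call as higher was made for 1 of the 10 antagonists, where 0.776% of all genes tested were called higher. A call as lower was made for 0 of the 10, against 0.481% of all genes, and 1.26% were called in either direction. At an unadjusted p under 0.05, 4 of the 10 were lower, against 8.34% of all genes, and 1 was higher, against 8.03% (16.4% in either direction). DESeq2's Wald test called *Sfrp1* and *Wif1*, where it called 236 of all 15600 genes lower and 300 higher. With limma-voom *Sfrp1* was called, among 62 genes called lower and 118 called higher. The *Sfrp1* call held in only 1 of the 6 fits that left out 1 library. It was also lost with the replicate number as a block and without scaling for library size.

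**Figure D1:**
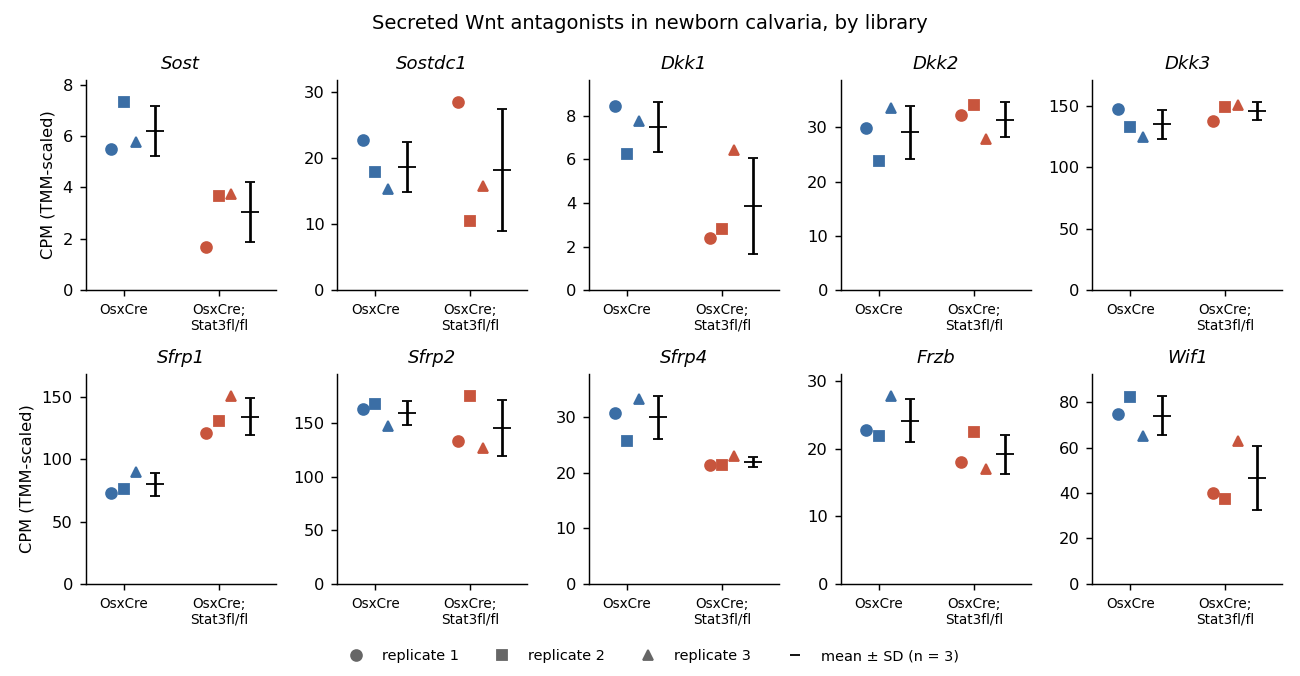
Level of each of the 10 antagonists in CPM (TMM-scaled, linear axes from 0) in the 3 OsxCre (blue) and 3 OsxCre;Stat3fl/fl (red) libraries, with the mean and SD beside the points. The *Sfrp1* points of OsxCre;Stat3fl/fl all lie above those of OsxCre, and the points of *Sost*, *Sfrp4* and *Wif1* all lie below.

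The libraries held 8193651 to 12080044 counts on genes, and every OsxCre;Stat3fl/fl library was smaller than every OsxCre library. *Stat3*, the targeted gene, had 149, 134 and 141 CPM in OsxCre and 152, 154 and 155 CPM in OsxCre;Stat3fl/fl libraries, so every library labelled OsxCre;Stat3fl/fl was above every OsxCre library (log2 fold change 0.12, SE 0.07, adjusted p = 0.442 from edgeR). A count for the whole gene does not tell the floxed exons from the rest, and the label was therefore not checked by this gene. The study describes the sequenced newborns as male, whereas *Xist*, the transcript of the inactive X chromosome, had 7333 to 12392 counts in every library and the Y-linked *Ddx3y* and *Kdm5d* had 0. The bone was represented in every library, with 9875 to 15111 CPM of *Col1a1*, the main collagen gene of osteoblasts. In bulk tissue, fewer cells of a type and less RNA per cell cannot be told apart.

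*Sost* encodes sclerostin and lies on chromosome 11 of GRCm38 from 101962458 to 101967015, on the minus strand. It had 58, 74 and 69 counts in OsxCre libraries 1, 2 and 3 and 14, 30 and 32 in OsxCre;Stat3fl/fl libraries 1, 2 and 3. These correspond to 5.50, 7.32 and 5.78 CPM against 1.68, 3.67 and 3.73 CPM. All 3 OsxCre;Stat3fl/fl libraries were below all 3 OsxCre libraries, and OsxCre;Stat3fl/fl library 1 was the lowest. The 95% Poisson interval of that library, which covers counting error only, ran from 0.917 to 2.81 CPM, and that of the lowest OsxCre library ran from 4.18 to 7.12 CPM. The intervals of OsxCre;Stat3fl/fl libraries 2 (2.47 to 5.24 CPM) and 3 (2.55 to 5.27 CPM) overlapped with the latter. Means were 6.20 ± 0.978 CPM (SD, n = 3) in OsxCre and 3.03 ± 1.17 CPM (SD, n = 3) in OsxCre;Stat3fl/fl. The log2 fold change was -1.03 (SE 0.31, 95% interval -1.76 to -0.30), with an unadjusted p of 0.0116 and an adjusted p of 0.166 from edgeR. A two-sided exact permutation test on CPM gave 0.1, the smallest p that 3 libraries against 3 allow. The study displayed lower osteoblast-related genes from these same libraries, so the lower values of *Sost* are not independent evidence. Without OsxCre;Stat3fl/fl library 1 the log2 fold change was -0.74.

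The 250 bases before the annotated start of *Sost*, *Dkk1* and *Wif1* are shown because these were the antagonists with means lower by more than 1.5-fold. RefSeq promoters (GRCm38) were matched for 6 of the 10 antagonists. The sequences were searched on both strands for TTCNNNGAA, the palindrome that STAT dimers bind, CTTTGA, the core bound by TCF and LEF factors, TGTGGT, the core bound by RUNX factors, and TATAAA, the TATA box. Capitals mark matches, and each line reads 5′ to 3′ on the strand of the gene. The *Sost* stretch is chr11:101967016-101967265, that of *Dkk1* is chr19:30549497-30549746, both on the minus strand, and that of *Wif1* is chr10:121033754-121034003 on the plus strand.
Sost: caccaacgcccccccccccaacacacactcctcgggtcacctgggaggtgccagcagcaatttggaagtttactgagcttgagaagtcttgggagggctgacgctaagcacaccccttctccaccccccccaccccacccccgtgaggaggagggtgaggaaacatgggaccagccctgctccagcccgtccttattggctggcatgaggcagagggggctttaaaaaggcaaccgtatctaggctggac
Dkk1: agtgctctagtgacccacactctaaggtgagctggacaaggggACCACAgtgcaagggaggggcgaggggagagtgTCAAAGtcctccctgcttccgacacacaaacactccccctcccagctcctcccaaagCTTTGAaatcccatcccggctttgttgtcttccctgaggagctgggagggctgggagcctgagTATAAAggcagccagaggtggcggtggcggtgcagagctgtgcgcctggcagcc
Wif1: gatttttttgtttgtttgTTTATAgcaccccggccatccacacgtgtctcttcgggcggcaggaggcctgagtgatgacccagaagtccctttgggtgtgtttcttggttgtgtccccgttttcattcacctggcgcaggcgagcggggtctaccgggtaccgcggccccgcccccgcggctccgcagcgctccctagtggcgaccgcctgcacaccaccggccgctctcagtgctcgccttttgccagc
The *Sost* stretch held 0 of these motifs. The *Dkk1* stretch held CTTTGA at 2 places, starting at -174 (on the other strand) and -117 from the gene's start. It also held TGTGGT at -207, on the other strand, and TATAAA at -54. In *Wif1* only TATAAA was found, on the other strand at -232. TTCNNNGAA was found in 1 of the 6 matched promoters, that of *Frzb* at -87, which also held CTTTGA at -95 on the other strand. Over all 32817 promoters of the same length, TTCNNNGAA occurred in 7.02%, CTTTGA in 13.8%, TGTGGT in 14.04% and TATAAA in 12.4%. A match is a description of the letters and does not show that a factor binds there.

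Other genes known from osteocytes were examined beside *Sost*. Of 10 such genes listed, 9 were tested, and 0 were called or had an unadjusted p under 0.05 in edgeR, DESeq2 or limma-voom. Their log2 fold changes were negative for 4 and positive for 5, with a median of 0.08, where that of all genes tested was -0.00. The negative ones were *Dmp1* (-0.18), *Mepe* (-0.29), *Phex* (-0.25) and *Kl* (-0.50). The positive ones were *Pdpn* (0.15), *Irx5* (0.32), *Ackr3* (0.08), *Cd44* (0.14) and *Fam20c* (0.16). *Dmp1*, a matrix protein of early osteocytes, had 153, 74.0 and 129 CPM in OsxCre and 97.1, 86.3 and 130 CPM in OsxCre;Stat3fl/fl. These ranges overlap. *Mepe*, another osteocyte matrix protein, had 3.86 to 10.3 CPM in OsxCre and 4.89 to 6.88 CPM in OsxCre;Stat3fl/fl, and *Phex*, an endopeptidase of phosphate control, had 36.3 to 58.0 and 33.4 to 48.9 CPM. The summed level of the osteocyte genes was 404 to 550 CPM in OsxCre and 450 to 527 CPM in OsxCre;Stat3fl/fl. By mean, the largest part of that sum was *Cd44*, at 136 CPM in OsxCre and 149 CPM in OsxCre;Stat3fl/fl. Within a library, where scaling cancels, *Sost* had 109, 202 and 99.6 counts per 1000 counts of *Phex* in OsxCre and 50.2, 92.9 and 76.4 in OsxCre;Stat3fl/fl, without overlap. Per 1000 counts of *Dmp1* it had 36.0, 98.9 and 44.6 against 17.3, 42.5 and 28.7, which overlap. For each *Mepe* count it had 0.690, 1.90 and 0.561 against 0.264, 0.750 and 0.542, which also overlap. OsxCre library 2 had the highest *Sost* and the lowest *Dmp1* of its genotype.

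*Sost* lies 1.02 Mb from *Stat3* on the same chromosome. Of the RefSeq genes within 250 kb of *Sost*, 19 were in the count tables and 11 were tested, of which 9 had a negative log2 fold change. The median was -0.18, with a range from -0.73 to 0.34. Of all 15600 genes tested, 7913 had a negative log2 fold change, and 1.26% were called in either direction. The nearest tested gene, *Dusp3*, which encodes a dual-specificity phosphatase, lies 4126 bases from *Sost* and was the only one of the 11 that was called. It had 110, 95.9 and 113 CPM in OsxCre and 60.8, 69.0 and 62.4 CPM in OsxCre;Stat3fl/fl. These groups lie well apart, and *Dusp3* fell by 0.73 on the log2 scale (SE 0.09, adjusted p = 0.0165 from edgeR). *Hdac5*, a histone deacetylase gene at the far end of the window, had the opposite sign, with 111, 121 and 132 against 151, 153 and 156 CPM (log2 fold change 0.34, SE 0.08, adjusted p = 0.103 from edgeR). The floxed allele and the genotype cannot be told apart for genes linked to *Stat3*.

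The genes whose centred log2 CPM over the 6 libraries were closest to those of *Sost* were *LOC102632349*, *Lpar3*, *F630028O10Rik*, *Crip3* and *Stmnd1*, with root mean square differences between 0.177 and 0.208 on the log2 scale. *Lpar3*, a receptor for lysophosphatidic acid, had 4.18, 5.64 and 5.11 CPM in OsxCre and 1.68, 2.45 and 3.38 CPM in OsxCre;Stat3fl/fl. For *Stmnd1* the values were 14.6, 16.4 and 12.1 CPM against 4.43, 7.46 and 6.41 CPM. *Stmnd1* was the only one of the 5 that was called, at a log2 fold change of -1.23 (adjusted p = 0.0475 from edgeR). The 5 were picked for likeness to *Sost* over all 6 libraries, so their lower values in OsxCre;Stat3fl/fl follow from the choice.

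For the other antagonists the single closest gene was *Bcas1* for *Sostdc1* (root mean square difference 0.123), *Bank1* for *Dkk1* (0.179), *Jund* for *Dkk2* (0.0496) and *Fbln2* for *Dkk3* (0.0245). It was *Alkbh7* for *Sfrp2* (0.0304), *Chaf1a* for *Sfrp4* (0.0411) and *Echdc1* for *Frzb* (0.0320), and those of *Wif1* and *Sfrp1* are given with these genes. *Bank1* (0.359 to 1.51 CPM) and, among the genes closest to *Sost*, *F630028O10Rik* (0.359 to 2.18 CPM) and *LOC102632349* (0.479 to 1.98 CPM) are close to the limit of detection.

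**Figure D2:**
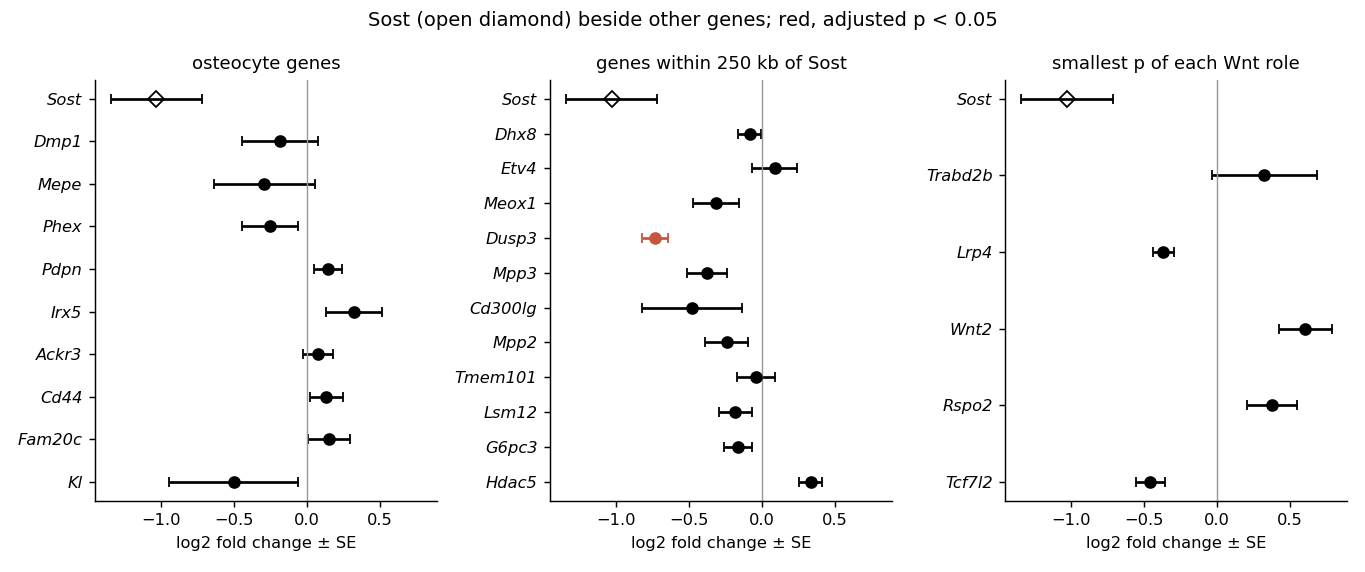
Log2 fold change with its standard error for *Sost* (open diamond) beside the 9 tested osteocyte genes, the 11 tested genes within 250 kb of *Sost* in order of position, and the gene with the smallest p in each of the 5 groups of other Wnt pathway genes. *Sost*, at -1.03, is lower than every other gene drawn, and of these *Dusp3* (red) was the only one called.

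The Dickkopf genes did not move as a group. *Dkk1*, the founding co-receptor antagonist, lies on chromosome 19 from 30545876 to 30549496. It had 8.45, 6.23 and 7.78 CPM in OsxCre and 2.40, 2.81 and 6.41 CPM in OsxCre;Stat3fl/fl. OsxCre;Stat3fl/fl libraries 1 and 2 were below every OsxCre library, while library 3 lay within the OsxCre range. Means were 7.49 ± 1.14 and 3.87 ± 2.21 CPM (SD, n = 3 each). The log2 fold change was -0.95 (SE 0.37), with an unadjusted p of 0.0331 and an adjusted p of 0.257 from edgeR. Leaving out 1 library gave log2 fold changes from -1.52 without OsxCre;Stat3fl/fl library 3 (adjusted p = 0.110 from edgeR) to -0.69 without OsxCre;Stat3fl/fl library 1 (adjusted p = 0.402). The unadjusted p was under 0.05 in 2 of these 6 fits. Within a library, *Dkk1* had 57.2, 46.9 and 62.5 counts per 1000 counts of *Dkk3* in OsxCre and 17.4, 18.9 and 42.5 in OsxCre;Stat3fl/fl. On that measure, chosen after the values were seen, the genotypes did not overlap.

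*Dkk2*, which binds the same co-receptors and has been given both inhibiting and activating roles, had 29.99, 23.8 and 33.6 CPM in OsxCre and 32.3, 34.1 and 27.9 CPM in OsxCre;Stat3fl/fl. *Dkk3* had 148, 133 and 125 CPM in OsxCre and 138, 149 and 151 CPM in OsxCre;Stat3fl/fl. For both genes the genotypes overlapped. The log2 fold change was 0.11 for *Dkk2* (95% interval -0.22 to 0.44, adjusted p = 0.772 from edgeR) and 0.11 for *Dkk3* (95% interval -0.09 to 0.31, adjusted p = 0.572), and without scaling for library size both became negative, at -0.28 and -0.26. Both stayed above the median of all genes under that setting, which was -0.38.

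*Wif1*, on chromosome 10 from 121034004 to 121100642, encodes a secreted protein that binds WNT ligands through its WIF domain. It had 74.7, 82.3 and 65.1 CPM in OsxCre and 39.9, 37.3 and 62.9 CPM in OsxCre;Stat3fl/fl. OsxCre;Stat3fl/fl libraries 1 and 2 were well below the OsxCre range, and library 3 was just below it, so the groups did not overlap. Means were 74.0 ± 8.59 and 46.7 ± 14.1 CPM (SD, n = 3 each). The log2 fold change was -0.66 (SE 0.20, 95% interval -1.12 to -0.21), with an unadjusted p of 0.00987 and an adjusted p of 0.154 from edgeR. DESeq2's Wald test gave an adjusted p of 0.0278. With 1 library left out, the log2 fold change of *Wif1* ran from -0.94 without OsxCre;Stat3fl/fl library 3 (adjusted p = 0.0795 from edgeR) to -0.52 without OsxCre;Stat3fl/fl library 2 (adjusted p = 0.284). OsxCre;Stat3fl/fl library 3 also had the highest *Dkk1* of its genotype. Of the genes tested, *Zfp365* was the closest to *Wif1* in pattern over the 6 libraries (root mean square difference 0.0537 on the log2 scale).

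The secreted Frizzled-related proteins carry a cysteine-rich domain like that of the Frizzled receptors. *Sfrp1*, on chromosome 8 from 23411383 to 23449632, had 73.3, 75.9 and 90.1 CPM in OsxCre and 121, 131 and 151 CPM in OsxCre;Stat3fl/fl. Every OsxCre;Stat3fl/fl library lay above every OsxCre library. Means were 79.8 ± 9.07 and 134 ± 15.1 CPM (SD, n = 3 each), a log2 fold change of 0.75 (SE 0.11, 95% interval 0.49 to 1.01, adjusted p = 0.0279 from edgeR). A two-sided exact permutation test on CPM gave p = 0.1. The call did not survive the loss of a library in 5 of 6 fits. Without OsxCre library 1 or 2 the adjusted p was 0.117 or 0.0991, and without OsxCre;Stat3fl/fl library 1, 2 or 3 it was 0.0529, 0.0654 or 0.113, with log2 fold changes between 0.66 and 0.82. Without OsxCre library 3, the highest of its genotype, it was 0.0350. The call was also lost with the replicate number as a block (log2 fold change 0.75) and without scaling for library size (log2 fold change 0.37). *Parp4* was the gene closest to *Sfrp1* in pattern over the 6 libraries (root mean square difference 0.0656 on the log2 scale).

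*Sfrp4*, on chromosome 13 from 19623175 to 19632825, had the opposite order. It had 30.7, 25.7 and 33.2 CPM in OsxCre and 21.3, 21.4 and 23.0 CPM in OsxCre;Stat3fl/fl, without overlap and with little spread among the OsxCre;Stat3fl/fl libraries. Means were 29.9 ± 3.83 and 21.9 ± 0.936 CPM (SD, n = 3 each). The log2 fold change was -0.45 (SE 0.12, 95% interval -0.72 to -0.18), with an unadjusted p of 0.00551 and an adjusted p of 0.125 from edgeR. *Frzb*, known from cartilage, had 22.8, 22.0 and 27.8 CPM in OsxCre and 18.1, 22.5 and 17.0 CPM in OsxCre;Stat3fl/fl. OsxCre;Stat3fl/fl library 2 lay within the OsxCre range (log2 fold change -0.33, SE 0.15, adjusted p = 0.317 from edgeR). *Sfrp2* had 163, 168 and 147 CPM against 134, 176 and 127 CPM, and OsxCre;Stat3fl/fl library 2 was the highest of the 6. Its log2 fold change was -0.13 (95% interval -0.43 to 0.16, adjusted p = 0.664 from edgeR).

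*Sostdc1*, the paralog of *Sost*, which also binds BMP proteins, varied widely within OsxCre;Stat3fl/fl. It had 22.7, 17.9 and 15.2 CPM in OsxCre and 28.4, 10.4 and 15.7 CPM in OsxCre;Stat3fl/fl, so that both the highest and the lowest value came from OsxCre;Stat3fl/fl libraries. The coefficient of variation was 50.8% in OsxCre;Stat3fl/fl, below that of *Dkk1* (57.1%), and 20.3% in OsxCre. The log2 fold change was -0.03 with an SE of 0.33, so changes between -0.81 and 0.74 lie within the 95% interval. Without OsxCre;Stat3fl/fl library 1 it was -0.51, and without library 2 it was 0.25. The neuron and brain markers were also lowest in OsxCre;Stat3fl/fl library 2, at a summed 30.9 CPM, and highest in OsxCre;Stat3fl/fl library 1, at 420 CPM, with 124 to 386 CPM in OsxCre. Their part in the *Sostdc1* values was not tested.

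**Figure D3:**
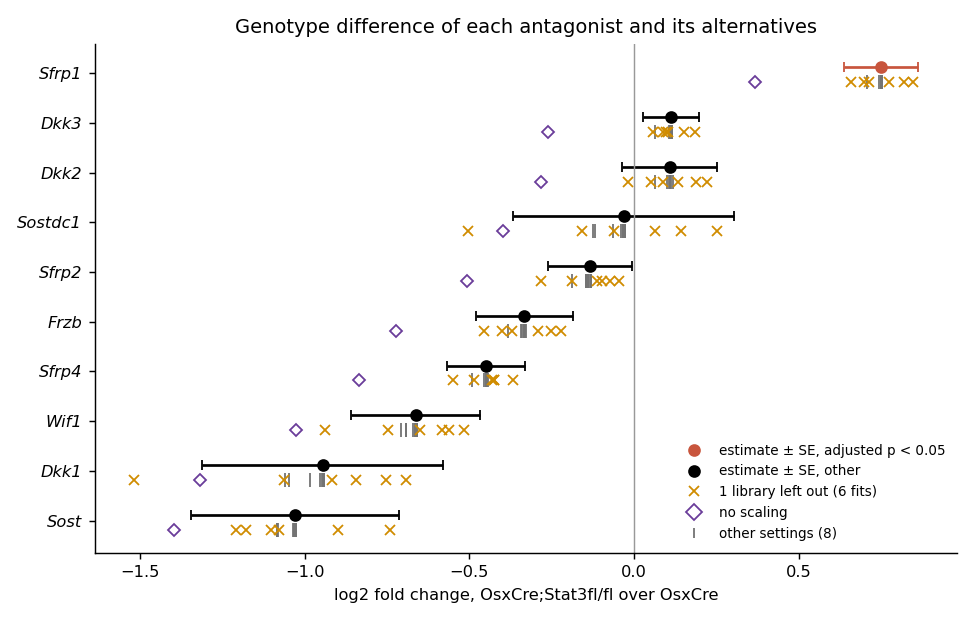
Log2 fold change of each antagonist, OsxCre;Stat3fl/fl over OsxCre, with its standard error (circles), and below each the values when 1 library was left out (crosses), without scaling for library size (diamonds) and under the 8 other settings (bars). *Sfrp1*, at 0.75, is the only called gene, and every alternative drawn for it is positive, whereas every alternative for *Sost*, *Dkk1*, *Wif1*, *Sfrp4*, *Frzb* and *Sfrp2* is negative.

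Separation of the libraries was counted for the whole group. For 3 of the 10 antagonists (*Sost*, *Sfrp4* and *Wif1*) all OsxCre;Stat3fl/fl values were below all OsxCre values, where this held for 12.2% of all genes tested, and for 1 (*Sfrp1*) all were above, against 10.8%. Past 1.5-fold in the fit, 3 were lower (*Sost*, *Dkk1* and *Wif1*), against 3.71% of all genes, and 1 was higher, against 5.12%. The median log2 fold change of the 10 was -0.23. The summed CPM of the 10 genes was 550 to 579 in OsxCre and 536 to 588 in OsxCre;Stat3fl/fl, and these ranges overlap. With library totals alone as scaling, 5 antagonists were lower without overlap, against 15.3% of all genes, and without any scaling 7 were, against 52.3% of all genes.

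Divided by the length of annotated exons, the levels allow the antagonists to be compared with each other. *Sfrp2* was highest, at 74.1 ± 5.13 CPM per kb (SD, n = 3) in OsxCre, followed by *Dkk3* at 40.2 ± 3.48, *Wif1* at 30.5 ± 3.54 and *Sfrp1* at 18.2 ± 2.07 CPM per kb. These 4 did not overlap with their neighbors in the order. *Sostdc1*, at 10.6 ± 2.16 CPM per kb, overlapped with *Dkk2* at 7.89 ± 1.33, and *Dkk2*, *Frzb* and *Sfrp4* overlapped with one another, the latter pair at 7.47 ± 0.976 and 7.38 ± 0.946 CPM per kb. *Dkk1* and *Sost* were lowest, at 3.08 ± 0.469 and 3.0 ± 0.473 CPM per kb, and overlapped. In OsxCre;Stat3fl/fl, *Sfrp1*, at 30.7 ± 3.46 CPM per kb, lay above *Wif1*, at 19.2 ± 5.80 CPM per kb, without overlap, and the other 8 kept their places in the order of means.

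**Figure D4:**
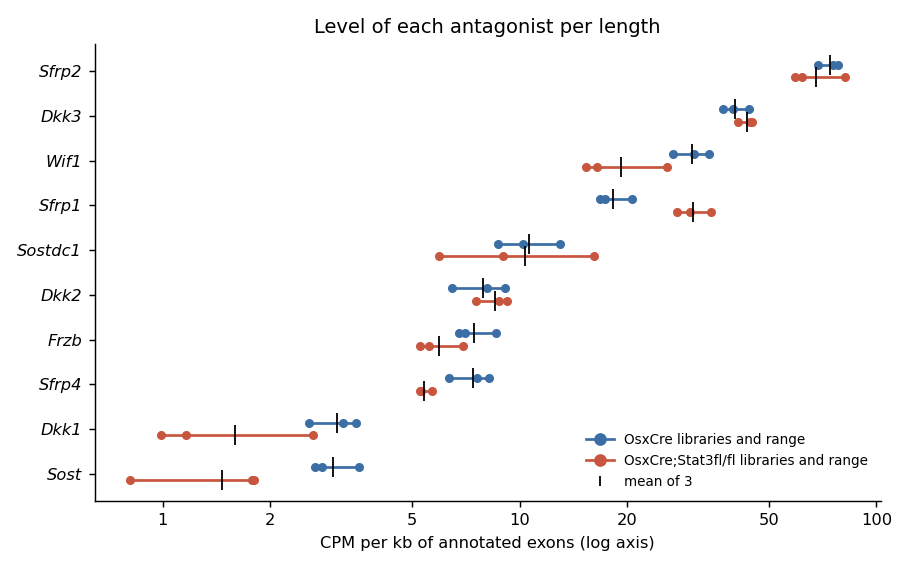
CPM per kb of annotated exons (log axis) of each antagonist in OsxCre (blue) and OsxCre;Stat3fl/fl (red) libraries, in the order of the OsxCre means, with a line over the range of the 3 libraries and a black bar at their mean. *Wif1* and *Sfrp1* exchange places between the genotypes, from 30.5 and 18.2 CPM per kb to 19.2 and 30.7.

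Ratios within a library do not depend on the scaling. *Sfrp1* had 0.981, 0.923 and 1.38 counts for each *Wif1* count in OsxCre and 3.03, 3.51 and 2.40 in OsxCre;Stat3fl/fl. The mean ratio was 2.72 times as high in OsxCre;Stat3fl/fl, without overlap. For each *Sost* count there were 13.3, 10.4 and 15.6 *Sfrp1* counts in OsxCre and 72.1, 35.7 and 40.4 in OsxCre;Stat3fl/fl. Set against *Sfrp4*, *Sfrp1* gave 2.38, 2.95 and 2.71 against 5.67, 6.13 and 6.56, and against *Sfrp2* 0.449, 0.451 and 0.612 against 0.906, 0.747 and 1.18. The pairs were chosen after the values were seen, and those of *Sfrp1* with *Sost*, *Wif1* or *Sfrp4* had to separate, since these genes did so in opposite directions. The ratios are therefore a description, with no test.

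Among the other genes of the pathway, 70 were listed by role and 56 were tested. edgeR called 0 of them, limma-voom called 0 and DESeq2's Wald test called 1, *Lrp4*. At an unadjusted p under 0.05 in edgeR there were 8, of which 6 were lower and 2 higher, where 16.4% of all genes had such a p. The median log2 fold change of the 56 was 0.00. *Lrp4*, which presents sclerostin to LRP5 and LRP6, had 125, 121 and 132 CPM in OsxCre and 93.2, 96.6 and 103 CPM in OsxCre;Stat3fl/fl. The groups did not overlap (log2 fold change -0.37, SE 0.07, adjusted p = 0.0663 from edgeR). The other co-receptors had log2 fold changes of 0.06 for *Lrp5* and 0.17 for *Lrp6*, with adjusted p-values of 0.883 and 0.477 from edgeR.

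Of 11 tested WNT ligands, *Wnt2* had the smallest p, with 13.1, 13.5 and 11.8 CPM in OsxCre and 18.2, 24.8 and 15.5 CPM in OsxCre;Stat3fl/fl (log2 fold change 0.61, adjusted p = 0.162 from edgeR). *Tcf7l2*, a transcription factor that acts with β-catenin, had 33.2, 31.5 and 37.3 CPM against 24.9, 25.7 and 23.9 CPM, without overlap (log2 fold change -0.46, adjusted p = 0.0807 from edgeR). *Axin2*, the common readout of canonical signaling, had 31.5, 27.8 and 30.3 CPM in OsxCre and 33.8, 35.8 and 31.1 CPM in OsxCre;Stat3fl/fl, which overlap (log2 fold change 0.17, adjusted p = 0.435 from edgeR). Of the same list, the target genes *Sp5* and *Ccnd1* were lower without overlap and did not pass the test. *Sp5* had at most 1.38 CPM in a library (log2 fold change -1.0, adjusted p = 0.187 from edgeR), and *Ccnd1* had 154 to 171 CPM in OsxCre and 107 to 142 CPM in OsxCre;Stat3fl/fl (log2 fold change -0.37, adjusted p = 0.161 from edgeR). Among the R-spondins and their receptors the smallest p belonged to *Rspo2*, a secreted enhancer of Wnt signaling (log2 fold change 0.38, adjusted p = 0.326), and among the other secreted or membrane-bound antagonists to *Trabd2b* (log2 fold change 0.33, adjusted p = 0.716). *Sfrp5*, the remaining secreted Frizzled-related protein, had 27.0 to 40.9 CPM in OsxCre and 25.5 to 38.7 CPM in OsxCre;Stat3fl/fl.

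Marker lists of other cell types were read beside the antagonists. Of 10 osteoblast genes tested, 8 had negative log2 fold changes, with a median of -0.26. Their summed level, mostly collagen, overlapped between OsxCre (26204 to 34651 CPM) and OsxCre;Stat3fl/fl (23544 to 29748 CPM), and *Ibsp* (bone sialoprotein) was called, with 929 to 1058 CPM in OsxCre and 609 to 662 CPM in OsxCre;Stat3fl/fl. The summed skeletal muscle markers were 26410 to 28541 CPM in OsxCre and 31150 to 46399 CPM in OsxCre;Stat3fl/fl, without overlap, with *Myh3* called higher and *Myh4* called lower among the 8 genes by edgeR (6 of 8 called by DESeq2). The summed erythroid markers were 2225 to 3767 CPM in OsxCre and 1170 to 2077 CPM in OsxCre;Stat3fl/fl, again without overlap, with 0 of 4 tested called by edgeR, DESeq2 or limma-voom, 1 at an unadjusted p under 0.05 in edgeR, and *Hbb-b1* at 0 counts throughout. Suture mesenchyme and periosteum markers summed to 3253 to 3676 and 3851 to 4047 CPM, without overlap. Most of that sum came from *Postn* (1922 to 2209 and 2313 to 2551 CPM), the median log2 fold change of the list was 0.04, and 0 of 8 were called by edgeR, DESeq2 or limma-voom, with 3 at an unadjusted p under 0.05 in edgeR. Chondrocyte markers summed to 1863 to 3244 and 2820 to 3616 CPM, with overlap. Endothelial markers (469 to 664 and 570 to 674 CPM), macrophage and osteoclast markers (663 to 722 and 547 to 742 CPM) and markers of meninges and skin (683 to 1315 and 932 to 1387 CPM) overlapped. *Acp5* made up most of the macrophage and osteoclast sum, and *Ocstamp*, a gene of osteoclast fusion in that list, had 9.54 to 12.3 CPM in OsxCre and 16.6 to 20.8 CPM in OsxCre;Stat3fl/fl (log2 fold change 0.83, adjusted p = 0.0509 from edgeR) and was called by DESeq2 and limma-voom. The part of these differences in the antagonist values was not tested.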

How the data were processed

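The 6 libraries were polyadenylated RNA from parietal bone of 3 OsxCre and 3 OsxCre;Stat3fl/fl newborns, grouped by the genotype in the sample labels. The authors deposited whole-number counts per gene symbol, 1 table per library, without normalization. The submitters' processing notes name HISAT2 and GRCm38, whereas the study's methods name TopHat and mm9 with FPKM values, which were not used here. The counting program, its annotation and its handling of strand are not given in the sources used here. All counts fell on named genes.

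A low-count filter (edgeR's filterByExpr with a minimum of 10 counts and a total of at least 15) and TMM scaling preceded the comparison of genotypes with edgeR 4.0.16 (quasi-likelihood test, Benjamini-Hochberg adjustment over 15600 genes) in R 4.3.3, with DESeq2 1.42.0 and limma 3.58.1 as alternatives. Depth was 8193651 to 12080044 counts per library, and the common biological coefficient of variation was 0.167. A standard error is the log2 fold change over the square root of F. Single values were compared by an exact permutation test, two-sided. Fits were tested on simulated counts. Nothing in the labels says that libraries of a genotype came from separate litters, so p-values measure the spread between these libraries.

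The members and gene lists were chosen with earlier results of these data known. Named genes were the 10 antagonists, *Stat3*, called genes or the smallest p in each Wnt role, genes closest to each antagonist by centred log2 CPM (prior count 2), called neighbors of *Sost*, called markers and osteocyte genes. Other genes named (*Hdac5*, *Lrp5*, *Lrp6*, *Axin2*, *Sp5*, *Ccnd1*, *Sfrp5*, *Postn*, *Acp5*, *Ocstamp*) and the ratios within a library were chosen after values were seen. Positions and promoters are from RefSeq (GRCm38.p6), and exon lengths from GENCODE gene models on mm9, used for lengths alone. Scaling, filter, test, replicate block and leaving out each library were varied.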

Additional observations from a re-analysis of the deposited data

How the results depend on the processing

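Under the 15 alternative settings, *Sost*, *Dkk1*, *Wif1*, *Sfrp4*, *Frzb*, *Sfrp2* and *Sfrp1* kept their direction. *Sfrp1* was called in 7 of 9 settings other than the leave-one-out fits and in 1 of those 6 fits. *Sost* had log2 fold changes between -1.21 and -0.74 with 1 library left out. *Sostdc1* turned positive without OsxCre library 1 (0.14) and without OsxCre;Stat3fl/fl library 2 (0.25) or 3 (0.06), over a range from -0.51 to 0.25, and *Dkk2* turned negative without OsxCre library 2 (-0.020), over a range up to 0.22. Without scaling, *Dkk2* was -0.28 and *Dkk3* -0.26, and the 10 antagonists had a median of -0.62, against -0.38 for all genes. *Sfrp1* then had 0.37 (adjusted p = 0.0964 from edgeR), or 0.75 above that median, against 0.75 with TMM. That setting called *Sost*, *Dkk1*, *Sfrp2*, *Sfrp4*, *Frzb* and *Wif1* lower, and 16 other pathway genes were called. Of all 15600 genes tested, it called 5451 lower and 121 higher. Without overlap, 7 antagonists were lower and 0 higher (52.3% and 1.35% of all genes). With library totals 5 antagonists were lower without overlap (15.3% of all genes) and 1 other pathway gene was called, as with DESeq2's Wald test (1). *Wif1* was called without a filter (adjusted p = 0.0458 from edgeR) and by DESeq2.

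Genes called over the whole table numbered 75 lower and 121 higher (38.3% lower). The lower ones were 114 with library totals (50.7% of calls) and 5451 without scaling (97.8%). The numbers were 178 and 250 without a filter and 236 and 300 with DESeq2. Leaving out 1 library gave 5 to 36 lower and 7 to 67 higher, 3 to 5 antagonists lower and 1 to 2 higher without overlap. In those fits, with 2 libraries against 3, 15.4% to 18.4% of all genes were lower and 14.1% to 17.3% higher without overlap. With the replicate number as a block there were 1 and 0, and *Sfrp1* had an adjusted p of 0.0597. Same-numbered libraries come from different animals, and their deviations from the genotype means correlated at -0.10, -0.52 and -0.09. Between differently numbered libraries the correlations ran from -0.45 to 0.51. Deviations centred on 3 libraries depend on one another, so whether same-numbered newborns shared a litter was not tested. The median of the 10 marker lists moved by more than the spread between libraries in 8 lists without scaling and in 4 of the other values. *Sost* and *Dkk1* had the fewest counts of the antagonists, 14 to 93 a library, which limits their precision. Apart from scaling and fewer libraries, the cause of these differences was not tested.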
